A study of Mus musculus with 8 samples.

Results

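The DNA damage sensing and repair genes described here are 43 genes, chosen by symbol from a list of named genes and found in the deposited counts, of the 18957 genes listed in each library. They cover double-strand break sensing and signalling (8 genes), homologous recombination (3), non-homologous end joining (5), base excision and single-strand break repair (10), nucleotide excision repair (9), mismatch repair (3), the Fanconi anaemia pathway (2) and the single-strand DNA binding complex replication protein A (3). RNA was sequenced from PDGFRA-positive cells sorted from the ventricles of WT and Pdgfra-Cre:LmnaF/F mice. There were 4 samples of each genotype, with 1 library per sample. The aim was to find genes whose expression differs in cardiac fibroblasts that have lost Lmna. This gene encodes the nuclear lamina proteins lamin A and lamin C. All mice were of a C57BL/6 (mixed) strain and 3 to 4 weeks old. In Pdgfra-Cre:LmnaF/F mice both alleles of Lmna carry a floxed exon 2, which is deleted by a Cre recombinase expressed from a bacterial artificial chromosome transgene under the Pdgfra regulatory sequences. The WT group were littermates with wild-type alleles only, so the comparison has no libraries with Cre alone, and effects of Cre and of the Lmna deletion cannot be told apart. Pdgfra is also active in a few cardiac myocytes during development, so the deletion is not restricted to fibroblasts. The sorted gate took live cells that carried PDGFRA and no haematopoietic lineage marker. The labels do not say that the samples of a group came from separate animals, so the p-values measure only the spread between these samples.

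Cells detect a double-strand break through the MRE11-RAD50-NBN complex, which recruits and activates the kinase ATM, while single-strand DNA coated by replication protein A activates the kinase ATR. Both kinases phosphorylate checkpoint kinases, the histone variant H2AX and p53, and the break is then closed by homologous recombination, which copies a sister chromatid, or by end joining, which ligates the ends directly and is the main route in cells that do not divide. Oxidised and lost bases, bulky adducts and mismatches are removed by base excision, nucleotide excision and mismatch repair. Most of these steps are controlled through modification and recruitment of proteins, which RNA counts do not measure.

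To show what the promoters of these genes hold, windows of 300 bases (250 before to 50 after the annotated start, RefSeq, GRCm38.p6, which is mm10) were read for the 35 of 43 members that have one. No window was read for Rad50, Nbn, Prkdc, Polb, Xpc, Ddb2, Ercc3 and Fancd2. Both strands were searched for an E2F motif (TTTCCCGC, TTTCGCGC, TTTGCCGC or TTTGGCGC), which is bound by factors that control S-phase genes, the cyclic AMP response element TGACGTCA, the E-box CACGTG, the box CCAAT and the p53 half-site. The windows of Ercc5 and Apex1 are given because these members were the only ones whose libraries did not overlap between the genotypes, and those of Brca2, Xrcc6 and Msh6 because they hold the E2F motif and are described below by value. Capitals mark matches to the E2F motif, the cyclic AMP response element, the E-box and the CCAAT box, and matches to different motifs did not overlap in the member windows. All 5 lie on the + strand of the genome.
Ercc5, chr1:44147494-44147793: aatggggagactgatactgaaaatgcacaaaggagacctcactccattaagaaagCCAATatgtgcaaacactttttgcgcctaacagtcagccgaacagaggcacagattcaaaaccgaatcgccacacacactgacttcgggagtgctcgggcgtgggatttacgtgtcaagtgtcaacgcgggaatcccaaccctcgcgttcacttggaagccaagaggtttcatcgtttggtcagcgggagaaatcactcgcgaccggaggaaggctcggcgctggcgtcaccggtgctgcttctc
Apex1, chr14:50924699-50924998: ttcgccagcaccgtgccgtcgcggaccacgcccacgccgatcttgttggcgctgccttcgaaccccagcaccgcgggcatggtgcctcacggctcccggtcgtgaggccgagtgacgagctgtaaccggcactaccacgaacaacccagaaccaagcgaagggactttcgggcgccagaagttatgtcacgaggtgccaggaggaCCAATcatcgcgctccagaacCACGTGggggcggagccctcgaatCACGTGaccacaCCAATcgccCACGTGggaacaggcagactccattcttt
Brca2, chr5:150522371-150522670: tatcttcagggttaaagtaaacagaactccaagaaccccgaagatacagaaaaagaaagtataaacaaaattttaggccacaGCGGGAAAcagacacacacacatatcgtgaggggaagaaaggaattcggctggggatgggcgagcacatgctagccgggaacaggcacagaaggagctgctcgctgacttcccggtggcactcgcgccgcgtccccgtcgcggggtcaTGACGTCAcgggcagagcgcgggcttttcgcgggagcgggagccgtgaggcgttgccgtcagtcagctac
Xrcc6, chr15:82016119-82016418: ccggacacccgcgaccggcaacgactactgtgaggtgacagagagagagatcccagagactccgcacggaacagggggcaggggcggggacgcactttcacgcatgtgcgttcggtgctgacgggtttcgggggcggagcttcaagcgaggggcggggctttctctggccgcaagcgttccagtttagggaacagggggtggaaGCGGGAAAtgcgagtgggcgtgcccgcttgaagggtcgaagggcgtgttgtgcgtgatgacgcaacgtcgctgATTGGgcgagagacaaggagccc
Msh6, chr17:87974800-87975099: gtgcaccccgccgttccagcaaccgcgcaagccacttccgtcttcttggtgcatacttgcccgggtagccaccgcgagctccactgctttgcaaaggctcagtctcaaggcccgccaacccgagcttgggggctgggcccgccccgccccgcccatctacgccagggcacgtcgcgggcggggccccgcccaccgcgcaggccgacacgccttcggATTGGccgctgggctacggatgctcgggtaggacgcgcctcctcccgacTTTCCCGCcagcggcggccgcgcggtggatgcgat

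The E2F motif was found in 7 of 39 member windows (17.9%, with some genes having more than 1 window) and in 2.26% of all 32851 windows. The 7 windows belong to Chek2, Mdc1, Brca2, Xrcc6, Lig1, Msh3 and Msh6. An E-box was in 20.5% of member windows against 7.15% of all windows, and Apex1 held 3 copies. The CCAAT box was in 51.3% against 37.4%, the cyclic AMP response element in 2.56% against 1.79%, and the p53 half-site in 5.13% against 8.36%. A match describes the letters of a window and does not show that a factor is bound there.

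Total counts per library were 2080555 in WT replicate 2 and between 6345584 and 12502949 in the other 7. Values are given as CPM, the counts scaled to the library's total and its TMM factor, and 1 CPM stands for 1.99 counts in WT replicate 2 and for 6.26 to 12 counts in the other libraries. Lmna, the targeted gene, was at 331, 274, 483 and 374 CPM in WT and at 126, 97.4, 130 and 90.4 CPM in Pdgfra-Cre:LmnaF/F replicates 1 to 4, a log2 fold change of -1.72 ± 0.22 (SE; edgeR adjusted p = 0.00492), and the libraries of the groups did not overlap. Counts over the whole gene do not resolve the floxed exon. The 8 fibroblast markers summed to between 46900 and 54100 CPM in WT and between 40500 and 55900 CPM in Pdgfra-Cre:LmnaF/F. The 7 cardiac myocyte markers summed to 3140 CPM in Pdgfra-Cre:LmnaF/F replicate 4 against 188 to 387 CPM in its other 3 replicates and 264 to 610 CPM in WT. The 6 endothelial markers were all lower in Pdgfra-Cre:LmnaF/F by log2 fold change, and none passed the threshold. Their sums were 409 to 514 CPM against 534 to 729 CPM in WT. Tek made up most of each sum, at 287 to 342 CPM against 377 to 543 CPM in WT. The groups did not overlap for Tek and Cdh5, and overlapped for Pecam1, Kdr, Tie1 and Emcn. Markers of proliferating cells summed to 381 and 147 CPM in WT replicates 2 and 3 and to between 26.3 and 43.4 CPM in the other 6 libraries. The 10 genes of the tissue dissociation response were all higher in Pdgfra-Cre:LmnaF/F by log2 fold change. Their sums were 5680 to 9180 CPM against 1540 to 4240 CPM in WT. None passed the threshold, and the lowest edgeR adjusted p was 0.0649 (Atf3). The groups did not overlap for Fos, Fosb, Junb, Egr1, Atf3, Ier2 and Hspa1b, and overlapped for Jun, Dusp1 and Hspa1a. Y-linked genes summed to 143 to 230 CPM in 3 of 4 WT libraries and to 273 CPM in 1 of 4 Pdgfra-Cre:LmnaF/F libraries, its replicate 4. They summed to at most 1.96 CPM in the others, with 0.32 CPM in WT replicate 3. The part of these differences in the results below was not tested, except where a value without the library or with the term is given.

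**Figure D1:**
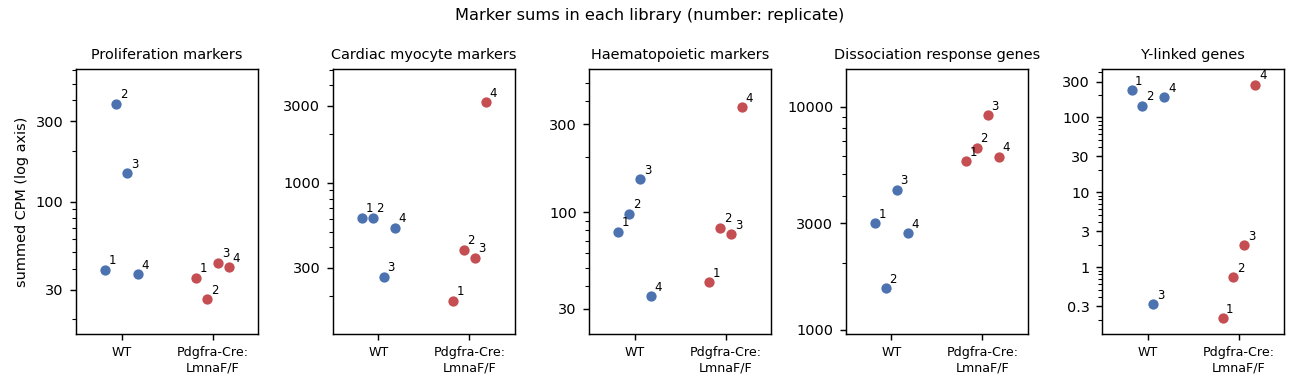
Summed CPM (log axes) of 4 marker lists and of the Y-linked genes in each library, 1 point per library, numbered by replicate. Replicate 4 of Pdgfra-Cre:LmnaF/F stood apart in cardiac myocyte markers (3140 CPM), WT replicate 2 in proliferation markers (381 CPM), and Y-linked expression was unevenly spread over the genotypes.

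Of the 43 repair genes, 41 had enough counts to be tested, and none passed an adjusted p of 0.05 between the genotypes with edgeR's quasi-likelihood test, DESeq2 or limma-voom. Among all 13036 genes tested, 53 passed with edgeR (0.407%, being 0.169% higher and 0.238% lower in Pdgfra-Cre:LmnaF/F), 126 with limma-voom (0.967%) and, of 14339 genes given an adjusted p, 309 with DESeq2 (2.15%). At these rates few or no calls among 41 genes are the background, and the count of 0 is not a result about repair genes. At an unadjusted p under 0.05 with edgeR there were 2 members, Xpc and Ercc5, both of nucleotide excision repair and both higher in Pdgfra-Cre:LmnaF/F, which is 4.88% of those tested against 11.9% of all genes. The lowest adjusted p of any member was 0.315 with edgeR, 0.272 with DESeq2 and 0.15 with limma-voom. The libraries of the genotypes did not overlap for 2 members, Ercc5 (higher) and Apex1 (lower), or 4.88%, against 8.03% of all genes tested (4.06% higher and 3.97% lower). The fitted level was higher in Pdgfra-Cre:LmnaF/F for 26 of 41 members, 63.4% against 51.8% of all genes, with a median log2 fold change of 0.16 against 0.02. Without WT replicate 3 the count was 21 of the 43 members then tested and the median 0.00, so the tilt towards higher values was not seen without that library. It is also the WT library with 0.32 CPM of Y-linked genes. With Y-linked expression as a term the count was 26 of 41 and the median 0.24. In bulk RNA, fewer cells that express a gene and less of its RNA per cell cannot be told apart.

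**Figure D2:**
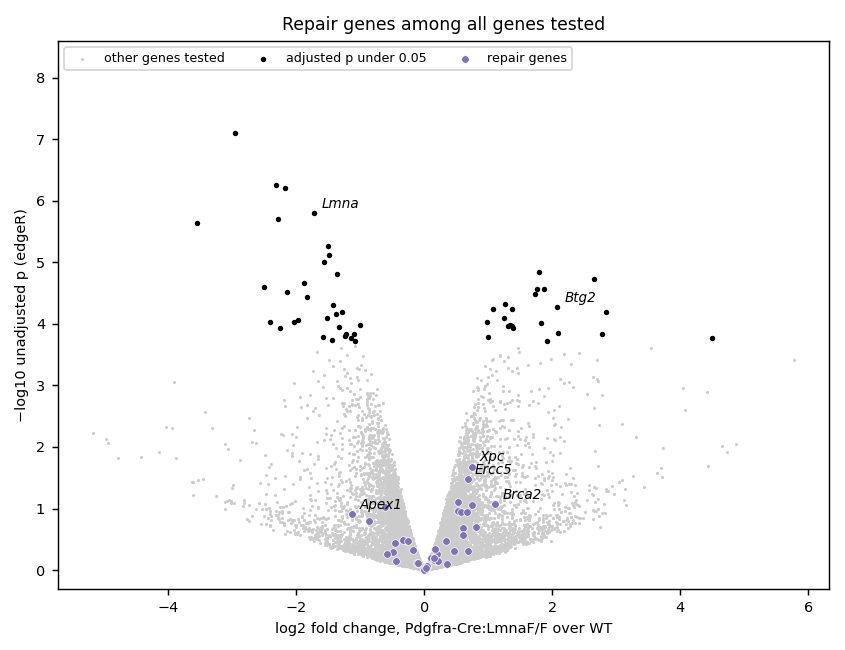
Unadjusted p of edgeR (as −log10, vertical axis) against the log2 fold change of Pdgfra-Cre:LmnaF/F over WT (horizontal axis) for the 13036 genes tested, with the 41 repair genes in purple and the 53 genes past the adjusted threshold in black. The repair genes lie between -1.12 (Apex1) and 1.11 (Brca2), and none is among the black points.

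Levels of different genes were compared per kilobase of exon length. Ddb1, which joins the damage sensor DDB2 to the CUL4 ubiquitin ligase and serves many other substrates, had by far the highest level, 88.2 CPM per kb in WT and 94.9 CPM per kb in Pdgfra-Cre:LmnaF/F, and alone made up 32.1% to 43.9% of the summed CPM of all 43 members in a library. Behind it in WT came Nbn (12.9 CPM per kb), Ercc1 (12.4), Xrcc5 (11.3) and Rpa1 (10.7), whose levels lay close together. The lowest 5 in WT were Brca1 at 0.291, Fanca at 0.367, Fancd2 at 0.386, Brca2 at 0.389 and Chek1 at 0.518 CPM per kb in WT. The median over members was 4.29 CPM per kb, against 5.71 CPM per kb over all genes tested. Chek1, the checkpoint kinase downstream of ATR, and Fen1, the flap endonuclease of long-patch base excision, had too few counts for a test. Chek1 had 7, 8, 23 and 12 counts in WT and 10, 0, 3 and 0 counts in Pdgfra-Cre:LmnaF/F replicates 1 to 4, and Fen1 had 3, 9, 0 and 11 against 9, 0, 0 and 37 counts. For both genes the ranges of the groups overlapped, and a library with 0 counts allows up to 3 counts, which is 0.25 to 0.479 CPM in the libraries concerned. In the exons of Fen1, 78.8% of bases also lie in an antisense gene.

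**Figure D3:**
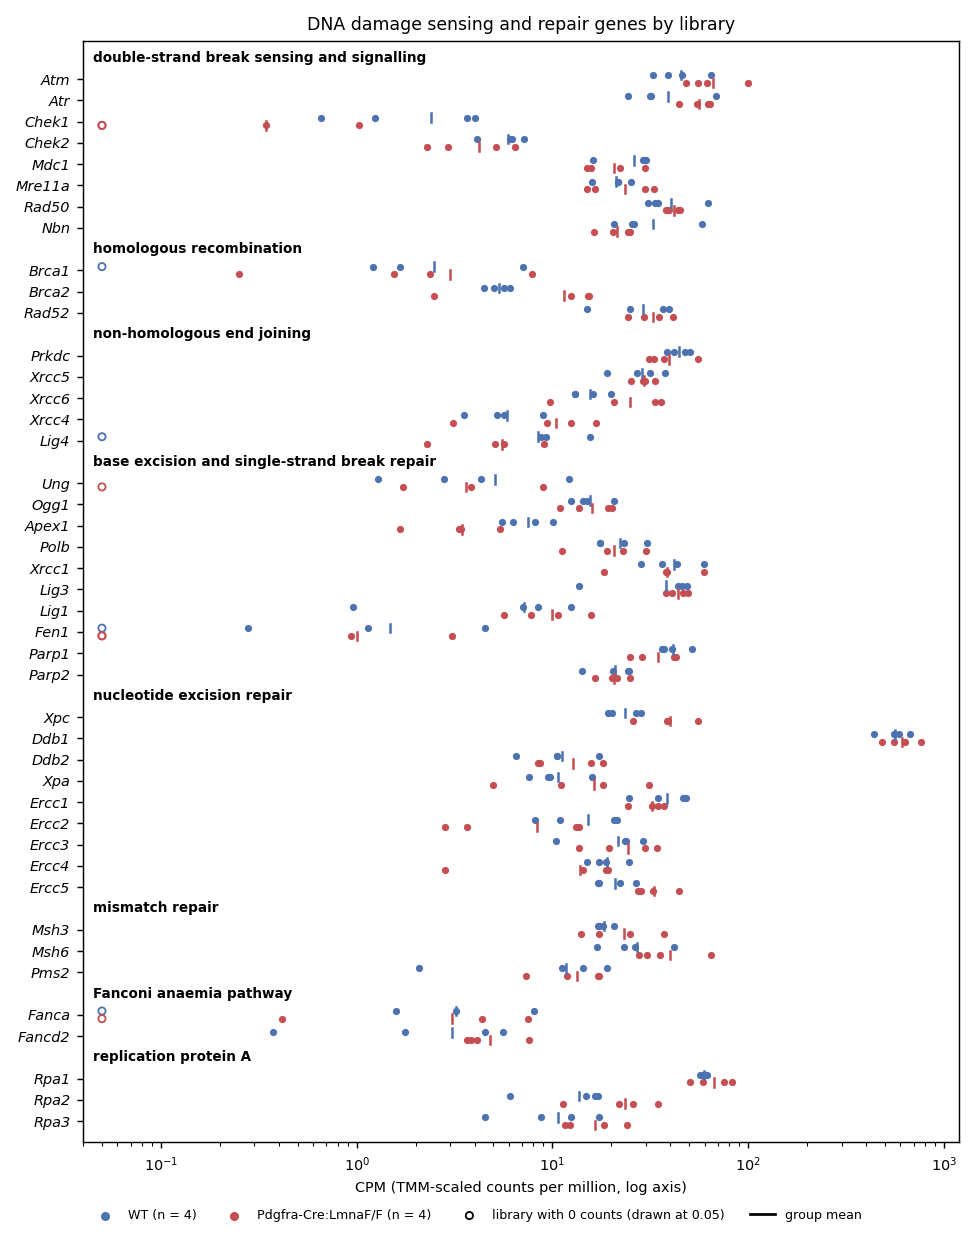
CPM (log axis) of each of the 43 repair genes in the 4 WT (blue) and 4 Pdgfra-Cre:LmnaF/F (red) libraries, 1 point per library, with the group mean as a vertical bar and open points for libraries with 0 counts. Ddb1 lies far to the right at 442 to 762 CPM, and the colours separate without overlap in the rows of Ercc5 and Apex1 only.

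Of the genes that sense and signal double-strand breaks, 7 were tested, 4 with a positive and 3 with a negative log2 fold change, with a median of 0.04 and a range from -0.61 to 0.53. Atm, the kinase at the head of the double-strand break response (chr9:53439149-53536740, mm10), was at 45.9, 32.7, 64.9 and 39.0 CPM in WT and at 55.5, 61.3, 48.0 and 100 CPM in Pdgfra-Cre:LmnaF/F replicates 1 to 4. Replicate 4 of Pdgfra-Cre:LmnaF/F was the highest, and the groups overlapped through WT replicate 3 alone. The log2 fold change was 0.53 ± 0.28 (SE), or 1.45-fold with a 95% interval from 0.954 to 2.20 (edgeR adjusted p = 0.489), and it ran from 0.14 without WT replicate 2 and Pdgfra-Cre:LmnaF/F replicate 4 to 0.74 without WT replicate 3. Atr, the kinase for single-strand DNA and stalled forks, was close to it at 1.43-fold (log2 0.52 ± 0.30), with 24.2 to 68.4 CPM in WT and 44.2 to 63.8 CPM in Pdgfra-Cre:LmnaF/F. Its groups too overlapped through WT replicate 3 alone, and its adjusted p was 0.15 with limma-voom and 0.148 without that library with edgeR.

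The 3 subunits of the break-binding complex differed in their values. Nbn, its signalling subunit (chr4:15957925-15992589), was at 25.6, 20.6, 58.0 and 26.1 CPM in WT and at 16.3, 20.4, 24.9 and 24.2 CPM in Pdgfra-Cre:LmnaF/F. WT replicate 3 was well above the other 7 libraries, among which the groups overlapped. The log2 fold change of -0.61 ± 0.34 (edgeR adjusted p = 0.527) was -0.18 without WT replicate 3 and -0.83 without WT replicate 2 and Pdgfra-Cre:LmnaF/F replicate 4. The ATPase subunit Rad50 was also highest in WT replicate 3, at 62.5 CPM against 30.7 to 45.1 CPM in the other libraries, and its log2 fold change was 0.04 ± 0.26. The other 3 WT libraries, at 30.7 to 34.6 CPM, were below every Pdgfra-Cre:LmnaF/F library, at 38.1 to 45.1 CPM. The nuclease subunit Mre11a had 15.9 to 25.2 CPM in WT and 15.1 to 32.9 CPM in Pdgfra-Cre:LmnaF/F, a log2 fold change of 0.16 ± 0.34. Mdc1, the scaffold that binds phosphorylated H2AX, and the checkpoint kinase Chek2 had negative values of -0.34 ± 0.33 and -0.49 ± 0.72.

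All 3 homologous recombination genes had positive log2 fold changes, from 0.15 to 1.11 with a median of 0.36, and none passed the test. Brca2, which loads the recombinase onto single-strand DNA (chr5:150522630-150570329), was at 5.05, 6.04, 4.47 and 5.69 CPM in WT and at 2.48, 15.4, 12.5 and 15.2 CPM in Pdgfra-Cre:LmnaF/F. The 3 libraries Pdgfra-Cre:LmnaF/F 2 to 4 were above all WT libraries, while replicate 1 was below them all. The difference was the largest positive one of any member, 2.16-fold with an interval from 0.886 to 5.26 (edgeR adjusted p = 0.506), and on the log2 scale it was 1.11 with edgeR, 0.44 with limma-voom and 1.44 without Pdgfra-Cre:LmnaF/F replicate 1. For Brca1, another S-phase recombination gene, values ran from 0 to 7.04 CPM in WT and from 0.25 to 7.83 CPM in Pdgfra-Cre:LmnaF/F, and the 95% interval of the fold reached from 0.168 to 9.72, so that no difference was detectable with this spread between libraries. Rad52 was at 29.0 ± 11.2 CPM in WT and 32.5 ± 7.29 CPM in Pdgfra-Cre:LmnaF/F (SD, n = 4 each).

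Of 5 end joining genes, 3 were higher and 2 lower, with a median log2 fold change of 0.03. The Ku heterodimer binds the broken ends, and its subunits gave different values. Xrcc6 (Ku70, chr15:81987835-82040085) was at 16.2, 13.1, 20 and 13 CPM in WT and at 35.7, 33.4, 20.7 and 9.67 CPM in Pdgfra-Cre:LmnaF/F. In 3 of its replicates Pdgfra-Cre:LmnaF/F exceeded every WT library, and replicate 4 was the lowest of all 8. The log2 fold change was 0.67 ± 0.40 (1.59-fold, interval 0.880 to 2.87; edgeR adjusted p = 0.56), and it ran from 0.02 with Y-linked expression as a term to 0.94 without Pdgfra-Cre:LmnaF/F replicate 4. Xrcc5 (Ku80) was level, at 28.8 ± 7.81 and 29.2 ± 3.35 CPM (SD, n = 4 each), with an interval of the fold from 0.675 to 1.54. Prkdc, the catalytic subunit of DNA-PK that joins Ku at the ends, was at 44.5 ± 5.40 and 39.2 ± 11.1 CPM, with a fold between 0.609 and 1.28.

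The ligation step was measured less precisely. Xrcc4, the scaffold of DNA ligase IV (chr13:89774027-90089608), was at 5.23, 3.52, 8.95 and 5.69 CPM in WT and at 3.10, 16.7, 12.4 and 9.33 CPM in Pdgfra-Cre:LmnaF/F. Replicates 2 to 4 of Pdgfra-Cre:LmnaF/F lay above all WT libraries and replicate 1 below them, the same arrangement of 3 above and 1 below as for Brca2. Its log2 fold change was 0.81 ± 0.60 (edgeR adjusted p = 0.666), and it ran from 0.43 with limma-voom to 1.11 without Pdgfra-Cre:LmnaF/F replicate 1. The ligase gene Lig4 itself was between 0 and 15.6 CPM in WT and between 2.29 and 9.08 CPM in Pdgfra-Cre:LmnaF/F, a log2 fold change of -0.58 ± 0.95. Over the 15 tested genes of sensing, recombination and end joining together, 10 were higher and the median was 0.15. No gene had groups that did not overlap, against 8.03% of all genes tested. At that rate few or none of 15 genes is the background, and the absence is not a result about these genes. Atm, Atr and Rad50 overlapped through WT replicate 3 alone.

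Among the member classes, base excision and single-strand break repair was the only one with more genes lower than higher, 6 against 3 of 9 tested. Its median log2 fold change was -0.10, with a range from -1.12 to 0.46. Of 16 other tested genes of this route, 8 were higher and 8 lower, and of 9 others of end joining 3 were higher and 6 lower. A difference between classes was not tested. Apex1, the main endonuclease for abasic sites (chr14:50924968-50927139), was at 8.13, 5.53, 10.1 and 6.32 CPM in WT and at 3.41, 1.67, 5.41 and 3.33 CPM in Pdgfra-Cre:LmnaF/F. Every Pdgfra-Cre:LmnaF/F library was below every WT library, the closest values being 5.53 and 5.41 CPM. The log2 fold change was -1.12 ± 0.69 (edgeR adjusted p = 0.575). As a fold of Pdgfra-Cre:LmnaF/F over WT this is 0.459, with an interval from 0.165 to 1.27. Turned round, the level was 2.18 times as high in WT. In its exons, 61.7% of bases overlap the gene Pip4p1 on the opposite strand, and whether the counting used strand is not given in the sources used here, so reads of the 2 genes may not be told apart.

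The other base excision genes had no such separation. Glycosylases start the pathway, and Ogg1, which removes oxidised guanine, was at 15.6 ± 3.52 and 16 ± 4.48 CPM, while Ung, which removes uracil, was between 0 and 12.1 CPM over all libraries. Polb, the polymerase that fills the gap, was at 22.2 ± 6.01 and 20.7 ± 7.83 CPM, and Xrcc1, the scaffold of single-strand break repair, at 41.8 ± 13.2 and 38.6 ± 16.9 CPM (SD, n = 4 each). The break sensors Parp1 and Parp2 had log2 fold changes of -0.26 ± 0.26 and -0.01 ± 0.31, with intervals of the fold from 0.568 to 1.23 and from 0.627 to 1.58. Of the ligases, Lig3 had 43.8 to 48.6 CPM in WT replicates 1, 2 and 4, 13.7 CPM in WT replicate 3, and 38.1 to 49.3 CPM in Pdgfra-Cre:LmnaF/F, and 25.1% of its exon bases lie in a gene on the opposite strand. Lig1, the replicative ligase, was also lowest in WT replicate 3, at 0.959 CPM, and its log2 fold change was 0.46 ± 0.66.

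Nucleotide excision repair held both members with an unadjusted p under 0.05, 2 of 9 genes tested against 11.9% of all genes, and 6 of the 9 were higher, with a median log2 fold change of 0.16. Which members had such a p depended on the setting. They were Atm, Atr and Ercc5 with limma-voom, Nbn, Ercc5 and Msh6 without WT replicate 2, only Xrcc6 without Pdgfra-Cre:LmnaF/F replicate 4, and Nbn, Xrcc6 and Msh6 without both of these libraries. Xpc, which recognises helix-distorting damage across the genome (chr6:91489305-91515888), was at 26.6, 20.1, 19.3 and 28.3 CPM in WT and at 25.9, 39.1, 38.3 and 55.7 CPM in Pdgfra-Cre:LmnaF/F replicates 1 to 4. Replicates 2 to 4 of Pdgfra-Cre:LmnaF/F were above every WT library, and replicate 1 lay within the WT range. The difference was 1.68-fold with an interval from 1.09 to 2.57 (log2 0.75 ± 0.29, edgeR adjusted p = 0.315). Across settings it ran from a log2 value of 0.46 with limma-voom to 0.99 with Y-linked expression as a term.

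Ercc5, the endonuclease XPG that cuts 3′ of the damage (chr1:44147744-44181260), was at 26.8, 22.1, 17.3 and 17.0 CPM in WT and at 28.5, 32.6, 27.3 and 44.2 CPM in Pdgfra-Cre:LmnaF/F. All Pdgfra-Cre:LmnaF/F libraries were above all WT libraries, narrowly so at 27.3 against 26.8 CPM. It was 1.6-fold higher with an interval from 1.04 to 2.45 (log2 0.68 ± 0.29, edgeR adjusted p = 0.371). The 5′ nuclease ERCC1-XPF did not share this direction, since Ercc1 had a log2 fold change of -0.27 ± 0.27 and Ercc4, which encodes XPF, one of -0.46 ± 0.49, and neither passed the test.

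Ercc2, the helicase XPD of the transcription factor complex TFIIH (chr7:19382010-19395694), was at 10.9, 20.6, 21.4 and 8.18 CPM in WT and at 13.6, 13.2, 3.68 and 2.83 CPM in Pdgfra-Cre:LmnaF/F. Pdgfra-Cre:LmnaF/F replicates 3 and 4 were below all other libraries and replicates 1 and 2 lay within the WT range. The log2 fold change was -0.86 ± 0.58 (edgeR adjusted p = 0.612), and it ran from -0.41 without WT replicate 2 and Pdgfra-Cre:LmnaF/F replicate 4 to -1.61 with Y-linked expression as a term. Of its exon bases, 24.6% and 17.8% lie in genes on the opposite strand. Ercc3, the other TFIIH helicase, had the opposite sign at 0.16 ± 0.38. The damage sensors Ddb1 and Ddb2 had log2 fold changes of 0.10 ± 0.21 and 0.18 ± 0.46, with 23.8% of the exon bases of Ddb2 in a gene on the opposite strand, and Ddb1, with the most counts of any member, had an interval of the fold from 0.787 to 1.47. Xpa, which verifies the damage, was at 10.7 ± 3.70 and 16.3 ± 11.3 CPM (SD, n = 4 each).

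The 3 mismatch repair genes all had positive log2 fold changes, from 0.22 to 0.57 with a median of 0.35, and none passed the test. Msh6, which recognises single mismatches (chr17:87975062-87990892), was at 26.4, 41.8, 16.9 and 23.1 CPM in WT and at 27.7, 30.6, 64.9 and 35.5 CPM in Pdgfra-Cre:LmnaF/F. Only replicate 3 of Pdgfra-Cre:LmnaF/F lay above the whole WT range. The difference was 1.49-fold with an interval from 0.897 to 2.46 (edgeR adjusted p = 0.559), and its log2 value of 0.57 ran from 0.23 without that library to 0.88 without WT replicate 2 and Pdgfra-Cre:LmnaF/F replicate 4. Msh3, which recognises larger loops, was at 17.1 to 20.7 CPM in WT and 14.0 to 37.1 CPM in Pdgfra-Cre:LmnaF/F. Pms2, an endonuclease of the pathway, was at 2.08 CPM in WT replicate 3 and at 7.30 to 19.1 CPM in the other 7 libraries.

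Both Fanconi anaemia genes, which act on crosslinks between DNA strands, were low. Fancd2, the clamp that is ubiquitinated at a crosslink (chr6:113531682-113597017), was at 0.374, 4.53, 5.59 and 1.76 CPM in WT and at 4.14, 7.61, 3.68 and 3.83 CPM in Pdgfra-Cre:LmnaF/F. Its groups overlapped, and the interval of the fold reached from 0.393 to 6.53 (log2 0.68 ± 0.95, edgeR adjusted p = 0.855). The log2 value was 1.57 with limma-voom and between 0.30 (without WT replicate 1) and 1.21 (without WT replicate 3) when 1 library was left out. Fanca, of the core complex that ubiquitinates it, was between 0 and 8.05 CPM over all libraries, with a log2 fold change of -0.01 ± 1.53, the least precise of any member.

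The 3 subunits of replication protein A all had positive log2 fold changes, with a median of 0.60. Rpa2 (chr4:132768332-132778752), the subunit that checkpoint kinases phosphorylate, was at 16.5, 6.04, 17.1 and 14.8 CPM in WT and at 11.3, 34.5, 21.8 and 25.9 CPM in Pdgfra-Cre:LmnaF/F. Replicates 2 to 4 of Pdgfra-Cre:LmnaF/F were above every WT library, and replicate 1 was within their range. The difference was 1.68-fold with an interval from 0.914 to 3.10 (edgeR adjusted p = 0.516). Rpa3, the smallest subunit, was 1.52-fold higher (0.775 to 2.98), and Rpa1, the large DNA-binding subunit, was the most even member in WT at 59.7 ± 2.36 CPM and was at 66.9 ± 14.7 CPM in Pdgfra-Cre:LmnaF/F (SD, n = 4 each).

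How large a difference could have been missed varied between members. The 95% interval of the fold lay within a 2-fold change either way for 15 of 41 members, against 41.5% of all genes tested, and SEs of the log2 fold change ran from 0.211 to 1.53 with a median of 0.354. By class these 15 were 2 of sensing, 1 of recombination, 2 of end joining, 6 of base excision, 3 of nucleotide excision, none of mismatch repair or the Fanconi pathway, and 1 of replication protein A. The spread between libraries of a group, as coefficient of variation of the CPM, had a median of 31.6% in WT and 38.4% in Pdgfra-Cre:LmnaF/F over members. The largest numbers of members with their lowest value in 1 library were in WT replicate 3 (11 of 41) and in WT replicate 2 and Pdgfra-Cre:LmnaF/F replicate 1 (7 each), while replicate 3 of WT also held the highest value for 7.

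**Figure D4:**
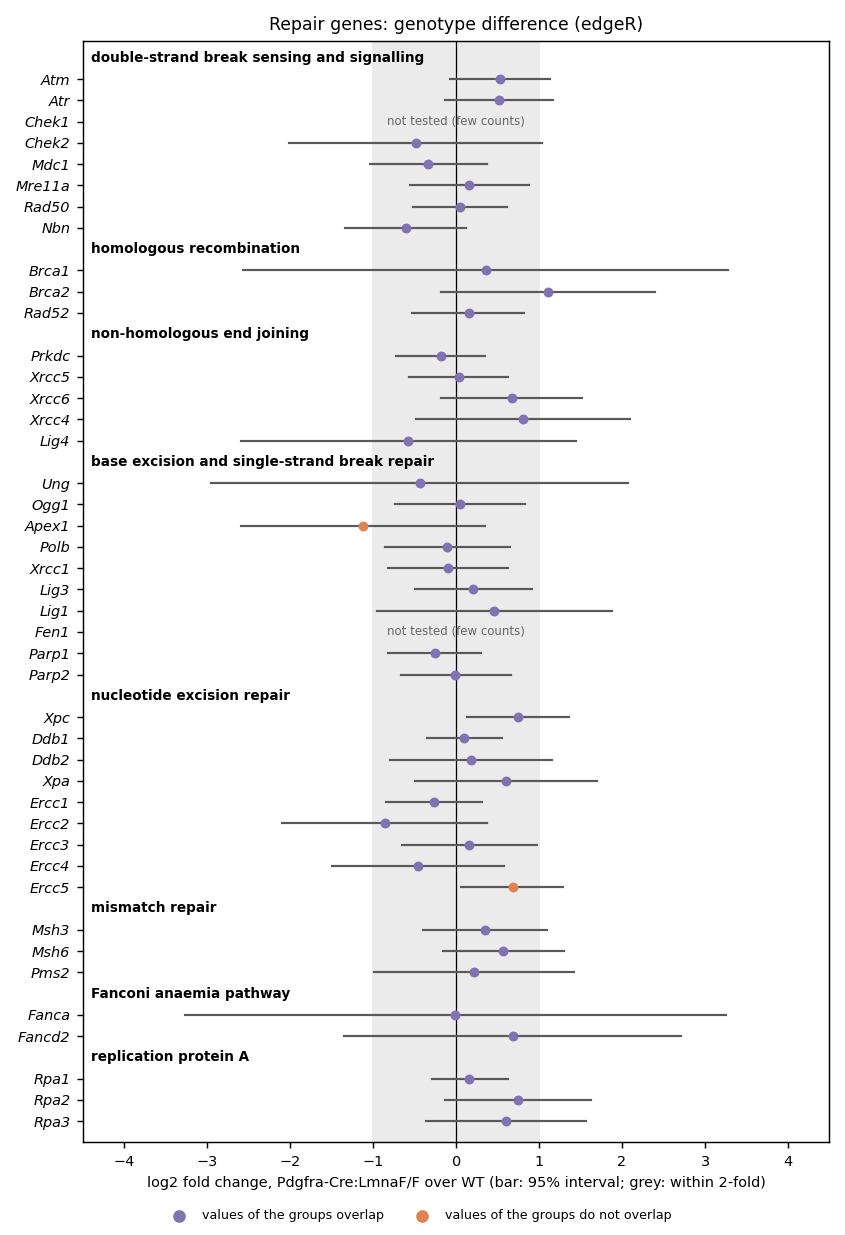
Log2 fold change of Pdgfra-Cre:LmnaF/F over WT for each repair gene by class (points) with its 95% interval (bars), edgeR, 4 libraries each, with the range of a 2-fold change either way in grey. Only the intervals of Xpc and Ercc5 lie to one side of 0, and those of Brca1, Fanca, Fancd2, Ung and Lig4 are the widest.

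Among 99 other genes of the same repair routes, 96 were tested and none passed the threshold with edgeR, DESeq2 or limma-voom, while 9 had an unadjusted p under 0.05 with edgeR (9.38%, against 11.9% of all genes). The fitted level was higher for 54 of the 96, with a median log2 fold change of 0.10. H2afx, which encodes H2AX, was at 4.48, 34.2, 3.20 and 7.04 CPM in WT and at 14.5, 14.0, 19.1 and 8.50 CPM in Pdgfra-Cre:LmnaF/F. WT replicate 2 was the highest of all 8 libraries, as it was for proliferation markers, and the other 3 WT libraries were below every Pdgfra-Cre:LmnaF/F library. The log2 fold change was 0.27 ± 0.65 (edgeR adjusted p = 0.927) with all libraries, 1.5 without WT replicate 2 and -0.05 without WT replicate 3.

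Of 21 tested genes of p53 and its targets, 1 passed the threshold with edgeR (0.407% of all genes), and 4 had an unadjusted p under 0.05 (19%, against 11.9% of all genes). Of these 4, Sesn1 and Trp53inp1 were high in Pdgfra-Cre:LmnaF/F replicate 4 alone, at 362 and 363 CPM. That library had 3140 CPM of cardiac myocyte markers, and a link was not tested. Plk2 was at 41.6 ± 16.4 CPM in WT and 72.7 ± 13.7 CPM in Pdgfra-Cre:LmnaF/F (SD, n = 4 each). Its log2 fold change was 0.79 ± 0.29 (edgeR adjusted p = 0.297), and its groups were apart narrowly, at 56.5 against 55.6 CPM. The groups did not overlap for 2 of the 21 genes, Plk2 and Btg2, both higher (9.52%, against 8.03% of all genes tested). Trp53 itself was at 58.6 ± 24.4 CPM in WT and 52.4 ± 18.8 CPM in Pdgfra-Cre:LmnaF/F, Cdkn1a, the p21 inhibitor of the cell cycle, at 25.9 ± 17.0 and 22.9 ± 10.8 CPM, and Mdm2, the ubiquitin ligase for p53, at 57.6 ± 12 and 60.1 ± 11.5 CPM (SD, n = 4 each). Their log2 fold changes of -0.16 ± 0.34, -0.14 ± 0.45 and 0.07 ± 0.23 were all smaller than their SEs, and each changed sign when some single library was left out. The gene that passed was Btg2, an antiproliferative p53 target that is also an immediate-early gene. It was at 343, 110, 511 and 268 CPM in WT and at 1010, 1050, 1890 and 1260 CPM in Pdgfra-Cre:LmnaF/F. All Pdgfra-Cre:LmnaF/F libraries were above all WT libraries, 4.21-fold on average with an interval from 2.44 to 7.28 (log2 2.08 ± 0.37, edgeR adjusted p = 0.0315). When 1 library was left out the log2 fold change lay between 1.79 and 2.42 and the adjusted p between 0.0146 and 0.108, and the call was lost without WT replicate 1, WT replicate 4, Pdgfra-Cre:LmnaF/F replicate 2 or Pdgfra-Cre:LmnaF/F replicate 3. The 10 dissociation response genes followed the same order of groups, 5680 to 9180 CPM against 1540 to 4240 CPM in sum, and their part in the Btg2 difference was not tested.

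Of the genes for sensing DNA in the cytosol, 5 were tested and none passed, with log2 fold changes from -0.12 to 1.04. Cgas, the sensor, was low, at 3.46, 2.52, 0 and 0.725 CPM in WT and at 3.83, 3.96, 3.45 and 2.42 CPM in Pdgfra-Cre:LmnaF/F. The groups overlapped, and the log2 fold change was 1.04 ± 1.2 (edgeR adjusted p = 0.821). It ran from 0.61 (without WT replicate 3) to 1.78 (without WT replicate 1) when 1 library was left out, and was 1.94 with 1 RUVr factor and 2.56 with Y-linked expression as a term.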

How the data were processed

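The authors isolated RNA with a RIN above 8 from sorted PDGFRA-positive cells, prepared strand-specific libraries after ribosomal RNA depletion, sequenced 150 bp paired-end reads, aligned them to mm10 with HISAT2 and counted GENCODE genes with featureCounts. What the authors deposited are whole-number counts, 1 for each gene symbol in each library, with no scaling for depth. Whether the RUV normalization named in the methods of the study entered these counts was not tested.

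Libraries were grouped by their labels. In R 4.3.3, counts were scaled with TMM factors, filtered with filterByExpr (13036 of 18957 genes kept) and compared between the genotypes with edgeR 4.0.16 (quasi-likelihood test, no covariate), with Benjamini-Hochberg adjustment over all tested genes and a threshold of 0.05. Intervals at the 95% level came from the log2 fold change and its SE. DESeq2 1.42.0, limma-voom (limma 3.58.1), other scalings and filters, 1 RUVr factor, a replicate block and leaving out each library were alternatives, and Y-linked expression as a term and leaving out 2 libraries together were added after the data had been seen. The scripts were tested on simulated data.

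Some listed genes are not reported here. The members and lists were chosen with earlier results of these data known. Values per library are given for members with groups that do not overlap, for the member with the lowest p and the one with the largest log2 fold change of each class, and for Atm, H2afx, Trp53, Cdkn1a, Mdm2, Cgas, Lmna and listed genes past the threshold (for Trp53, Cdkn1a and Mdm2 as mean and SD). Positions and exon lengths are those of GENCODE M21 on mm10. Total counts were 2080555 to 12502949 per library. Libraries of 1 group differed beyond counting error (chi-square per degree of freedom 15.2 to 102 between pairs), and the limit for a library at 0 covers counting error only.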

Additional observations from a re-analysis of the deposited data

Results flagged for a closer look

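Among 112 groups of 4 libraries, 9 held a library whose gap to the nearest of the others exceeded the 95% critical value of Dixon's test relative to the group's range, and chance flags about 1 in 20 groups. WT replicate 3 was the library concerned in 4 of the 5 flags on repair members that follow. It had 16.1 CPM of Mdc1 against 29.2 to 29.9 CPM in the other WT libraries, and 13.7 CPM of Lig3 against 43.8 to 48.6 CPM. It was high for Rad50, at 62.5 CPM against 30.7 to 34.6 CPM, and for Nbn, at 58.0 CPM against 20.6 to 26.1 CPM. Fancd2 was at 7.61 CPM in Pdgfra-Cre:LmnaF/F replicate 2 against 3.68 to 4.14 CPM in the others of its group. H2afx was at 34.2 CPM in WT replicate 2 against 3.20 to 7.04 CPM in the other WT libraries.

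Pdgfra-Cre:LmnaF/F replicate 4 stood apart from its group in the summed markers of cardiac myocytes (3140 CPM against 188 to 387 CPM), of haematopoietic cells (372 CPM against 41.8 to 82.5 CPM) and of endothelial cells (514 CPM against 409 to 426 CPM, all below the 534 to 729 CPM of the WT libraries). For Atm, the log2 fold change without this library was 0.26, against 0.53 with it.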

How the results depend on the processing

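No repair member passed the threshold under any of 18 alternative settings (lowest adjusted p 0.138 to 0.489), and the number higher in Pdgfra-Cre:LmnaF/F ran from 21 to 29 of the 33 to 43 tested. The number of all genes past it was 53 and became 309 with DESeq2 (134 higher, 175 lower), 274 with no filter, 126 with limma-voom, 81 with 1 RUVr factor and 112 with Y-linked expression as a term, and lay between 13 and 76 when 1 library was left out, with 24 without WT replicate 1, 24 without WT replicate 2, 13 without WT replicate 4, 26 without Pdgfra-Cre:LmnaF/F replicate 2 and 17 without Pdgfra-Cre:LmnaF/F replicate 3. The call of Btg2 was lost in 4 of these (0 to 1 listed genes past the threshold). Members whose groups do not overlap numbered 2, and 1 with no filter (Apex1, against 5.73% of all genes), 2 to 7 when 1 library was left out (4 without WT replicate 2, 5 without WT replicate 3, 7 without Pdgfra-Cre:LmnaF/F replicate 1, where 10.7%, 13.3% and 13.4% of all genes do not overlap) and 5 with WT replicate 2 and Pdgfra-Cre:LmnaF/F replicate 4 both left out, where fewer libraries overlap less often (17% of all genes). Signs turned for genes that were not called. H2afx ran from -0.05 to 1.5 when 1 library was left out, Trp53 from -0.41 to 0.09, Cdkn1a from -0.40 to 0.38 and Mdm2 from -0.08 to 0.16. With both libraries left out Trp53 was at 0.06 and Cdkn1a at 0.13, and Cdkn1a was at 0.22 with limma-voom and at 0.08 with the Y-linked term. The cause was not tested. The genotypes share replicate numbers, and same-numbered libraries did not deviate together (r from -0.035 to 0.033). Such a correlation cannot exclude that samples were paired, and the labels name no pairing. With a replicate block 36 genes and no repair member passed, and 1 member had an unadjusted p under 0.05. The number of members with an unadjusted p under 0.05 ran from 1 to 4 over the settings, and the members differed. Of those tested, 10 were under 10 CPM.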

Other observations

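The other genes of the repair routes with groups that did not overlap were 6 of 96 tested (6.25%, against 8.03% of all genes), and 5 of them are given here, chosen after their values were seen. Those higher in Pdgfra-Cre:LmnaF/F were Pcna, the sliding clamp of replication and repair synthesis, at 61.8 ± 15.7 CPM in WT and 98.1 ± 24.4 CPM in Pdgfra-Cre:LmnaF/F, the helicase gene Wrn at 35.8 ± 3.70 and 53.7 ± 9.12 CPM, Topbp1, an activator of ATR, at 39.0 ± 6.01 and 57.3 ± 10.7 CPM, and Cul4b, a ubiquitin ligase scaffold, at 36.8 ± 6.70 and 50.5 ± 3.81 CPM (SD, n = 4 each). Aptx, which removes abortive ligation products, was lower, at 19.8 ± 1.45 and 11.1 ± 1.2 CPM. None of them passed the threshold with edgeR, and the adjusted p of Pcna was 0.303.

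The p53 targets Sesn1, Trp53inp1 and Perp, named after their values were seen, were high in Pdgfra-Cre:LmnaF/F replicate 4 alone. Sesn1 was at 362 CPM there and at 56.9 to 73.2 CPM in the other 7 libraries, and Trp53inp1 was at 363 CPM against 35.7 to 108 CPM. Perp was at 40 CPM against 0 to 6.33 CPM. This library had 3140 CPM of cardiac myocyte markers, 372 CPM of haematopoietic markers and 273 CPM of Y-linked genes. A link of the 3 targets with any of these was not tested.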
